A study of Mus musculus with 23 samples.

Results

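The 7 genes described here, Tmem108, Sdk1, Mab21l2, Bex4, Rnase12, Gfra1 and Gfra2, were chosen from measured values: their counts, summed over all cells of a library, were higher in the Ezh2 KO libraries than in the other libraries. They are 7 of the 32285 genes in the deposited tables. All comparisons of Ezh2 KO with Control or with Jarid2 KO are therefore given for them as a description, without a test. Tests are given only for other contrasts, made on the same libraries: Jarid2 KO against Control, female against male, and the surface gates within a genotype. The question asked was which cells carry their RNA.

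The cells were mouse KSL cells, the fraction of bone marrow that bears c-Kit and Sca1 and lacks markers of mature lineages, and that holds the blood stem cells and the early multipotent progenitors. RNA was counted cell by cell in 11 libraries, out of 23 deposited samples. The other 12 were 6 antibody-tag libraries, used here to gate cells, and 6 CUT&Tag libraries, not analysed here. In the baseline experiment the marrow came from untransplanted mice 2 months old, with 1 male and 1 female each for Control, Ezh2 KO (Ezh2 fl/fl) and Jarid2 KO (Jarid2 fl/fl). In the transplant experiment donor KSL cells bearing CD45.2 were sorted 18 weeks after lethally irradiated mice had received 500000 donor and 500000 CD45.1 competitor marrow cells, with 1 Control, 2 Ezh2 KO and 2 Jarid2 KO libraries. The labels give Mx1-Cre, whose promoter responds to interferon and is active in many tissues besides blood, to every group, Control included. Beyond sex, no label says that libraries of a group came from separate animals, so p-values measure only the spread between these libraries.

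Ezh2 is the catalytic subunit of Polycomb repressive complex 2, which methylates histone H3 at lysine 27 and keeps many developmental genes silent. Jarid2 is an accessory subunit that helps the complex bind chromatin. Genes held silent in this way often have promoters rich in CpG dinucleotides, and many of them belong to lineages other than the one in which they are silenced. Of the 7 genes, Gfra1 and Gfra2 encode lipid-anchored co-receptors for the nerve growth factors GDNF and neurturin, which signal through the receptor Ret or through the adhesion molecule Ncam1. Sdk1 encodes an immunoglobulin-family adhesion molecule known for matching synaptic partners in the retina, and Tmem108 a transmembrane protein of neuronal vesicle transport. Mab21l2 is needed for development of the eye, Bex4 belongs to a small family of brain-expressed X-linked genes, and Rnase12 belongs to the ribonuclease A family.

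The promoters of 4 of these genes are shown because they differ widely in CpG content. Each run covers 250 bases before the annotated start and 50 after it, 5′ to 3′ along the gene's own strand, from RefSeq on GRCm38.p6, with every CG in capitals. The positions are chr5:141241284-141241583 on the plus strand for Sdk1, and on the minus strand chr9:103761788-103762087 for Tmem108, chr14:51057193-51057492 for Rnase12 and chr3:86548234-86548533 for Mab21l2.
Sdk1: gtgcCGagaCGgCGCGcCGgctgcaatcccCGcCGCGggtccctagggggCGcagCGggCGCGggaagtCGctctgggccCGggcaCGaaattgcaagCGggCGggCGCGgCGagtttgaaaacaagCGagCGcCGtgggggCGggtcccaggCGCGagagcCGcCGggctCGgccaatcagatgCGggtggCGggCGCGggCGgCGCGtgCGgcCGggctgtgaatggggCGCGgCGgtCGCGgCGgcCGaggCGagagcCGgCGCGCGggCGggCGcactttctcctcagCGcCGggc
Tmem108: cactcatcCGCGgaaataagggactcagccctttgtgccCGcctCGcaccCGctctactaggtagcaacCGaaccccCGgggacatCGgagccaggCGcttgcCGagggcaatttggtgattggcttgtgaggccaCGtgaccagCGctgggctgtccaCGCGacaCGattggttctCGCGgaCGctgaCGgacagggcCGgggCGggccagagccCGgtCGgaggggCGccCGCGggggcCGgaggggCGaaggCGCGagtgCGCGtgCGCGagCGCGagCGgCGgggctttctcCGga
Rnase12: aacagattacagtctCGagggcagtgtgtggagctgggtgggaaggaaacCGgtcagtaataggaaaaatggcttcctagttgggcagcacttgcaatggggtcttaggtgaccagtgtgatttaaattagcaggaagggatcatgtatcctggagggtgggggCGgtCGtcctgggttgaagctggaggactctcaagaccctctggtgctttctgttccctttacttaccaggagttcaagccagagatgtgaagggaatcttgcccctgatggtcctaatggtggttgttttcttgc
Mab21l2: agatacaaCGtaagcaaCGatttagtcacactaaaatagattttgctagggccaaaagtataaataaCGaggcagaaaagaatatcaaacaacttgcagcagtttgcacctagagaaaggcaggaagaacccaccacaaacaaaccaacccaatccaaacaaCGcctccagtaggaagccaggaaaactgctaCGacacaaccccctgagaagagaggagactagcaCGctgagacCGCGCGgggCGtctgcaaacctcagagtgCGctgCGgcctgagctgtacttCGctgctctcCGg
The Sdk1 promoter held 54 CG dinucleotides at a GC content of 78.3%, and its observed-to-expected CpG ratio of 1.218 lay at the 99.7th percentile of 32841 promoters of the same length. Tmem108 has a CpG-rich first promoter with 39 CG and a ratio of 1.064, and a second one at chr9:103692758-103693057 with 2 CG and a ratio of 0.098. Rnase12 held 4 CG with a ratio of 0.223, whereas Mab21l2 held 14 with a ratio of 0.761. Between them were Gfra1 at chr19:58455349-58455648 (12 CG, ratio 0.549) and Bex4 at chrX:136138746-136139045 (9 CG, ratio 0.334), against a median of 7 CG and a ratio of 0.384 over all promoters. A ratio of at least 0.6 with at least 50% GC was met by 33.5% of all promoters, and among the 7 member promoters by Sdk1 and the first Tmem108 promoter. The 7 genes thus did not share one kind of promoter. Gfra2 was matched to no promoter.

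A pair of short motifs read by B-lineage regulators were searched on both strands of the 7 promoters, after the B-lineage pattern described below was known. TCCCNNGGGA, the motif of EBF1, was found once, in the second Tmem108 promoter, and occurred in 297 of the 32841 promoters (0.9%). CAGGTG, an E-box, was found in 0 of the 7 and in 6638 of all promoters (20.2%). A match is a description of the letters in this window and not of a bound site.

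The genes lie apart. On GRCm38.p6 they span chr9:103482936-103761900 (Tmem108), chr5:141241497-142215586 (Sdk1), chr3:86546050-86548283 (Mab21l2, inside the span of Lrba), chrX:136138996-136140443 (Bex4), chr14:51056698-51057242 (Rnase12), chr19:58235581-58455946 (Gfra1) and chr14:70890107-70979840 (Gfra2).

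Libraries held 6723 to 9208 kept cells and 83921210 to 126527222 unique molecular identifiers (UMIs, 1 per captured RNA molecule) at baseline, and 4354 to 6149 cells and 67629053 to 111514122 UMIs after transplant. Before filtering, 2.82% to 5.82% of baseline barcodes and 25.73% to 43.44% of transplant barcodes were over the limit on mitochondrial RNA. After transplant this share was lowest in Ezh2 KO (25.73% and 27.38%), with 43.44% in Control and 36.55% and 37.45% in Jarid2 KO. With every deposited barcode kept, each transplant call of a gene named below kept its direction and its side of the threshold. Pairs of libraries shared 4 to 31 barcodes, at most 0.392% of the smaller library. Levels are given in CPM, the usual count scaled to the total UMIs of the library or of the cells named. Ezh2 itself, tested with edgeR's quasi-likelihood test, had 201 ± 11.0 CPM in Control and 155 ± 10.3 CPM in Ezh2 KO at baseline (SD, n = 2 each; log2 difference -0.33, Benjamini-Hochberg adjusted p 0.0599). After transplant it fell by 2.19 on the log2 scale, from 185 CPM to 42.9 ± 5.80 CPM (SD, n = 2; adjusted p 0.000832). The sources used here do not give the deleted exons, so RNA counted outside them checks nothing. Jarid2 was not lower in the libraries labelled Jarid2 KO (0.46 at baseline, adjusted p 0.107, and 0.52 after transplant, adjusted p 0.211). As a check of the labelled cell type, 7 stem cell markers summed to 1120 to 1630 CPM at baseline and 185 to 217 after transplant, and 6 myeloid markers to 437 to 825 and 8140 to 16900, so the transplanted KSL libraries held far more myeloid RNA and levels are not tested between experiments. The Control and Jarid2 KO transplant libraries were mixed in sex: cells with Xist RNA made up 59.4% of Control, 48.3% and 49.9% of Jarid2 KO and 0.02% and 0.05% of Ezh2 KO cells. The labels do not say whether donors of both sexes were pooled, and recipient or competitor cells in these sorts cannot be told apart from donor cells here, so the transplant levels of Control and Jarid2 KO are those of the sorted cells as labelled.

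At baseline the 2 co-receptor genes differed widely between the Control libraries. Gfra1 was at 6.79 CPM in the female and 22.5 in the male Control library, 34.3 and 58.9 in Ezh2 KO, with 7.11 and 8.04 in Jarid2 KO. Gfra2 was at 3.95 and 17.4 CPM in Control, 25.2 and 52.5 in Ezh2 KO, with 6.90 and 8.81 in Jarid2 KO, again female before male. For both genes the female Ezh2 KO library lay above the male Control library by a narrow margin, 1.53-fold for Gfra1 and 1.45-fold for Gfra2. The group means were 14.6 ± 11.1 CPM in Control and 46.6 ± 17.4 in Ezh2 KO for Gfra1, and 10.7 ± 9.52 and 38.9 ± 19.3 for Gfra2 (SD, n = 2 each).

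Tmem108 was at 7.32 CPM in the female and 18.1 in the male Control library, 74.4 and 114 in Ezh2 KO, with 13.0 and 12.4 in Jarid2 KO. The lowest Ezh2 KO library was 4.11-fold above the highest of the others. Sdk1 was at 3.08 and 4.60 CPM in Control, 21.6 and 36.1 in Ezh2 KO, with 3.18 and 4.27 in Jarid2 KO, a margin of 4.71-fold. The ratios of the Ezh2 KO to the Control mean were 7.42 for Tmem108 and 7.53 for Sdk1, the largest of the 7 at baseline. In both genes the female library was the lower of each Ezh2 KO and Control pair.

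Rnase12 was at 1.74 CPM in the female and 6.30 in the male Control library, 22.7 and 31.2 in Ezh2 KO, with 2.55 and 3.46 in Jarid2 KO. Bex4 had the highest mean of the 7 in Control, at 29.2 and 22.4 CPM, with 49.0 and 36.8 in Ezh2 KO against 25.6 and 20.9 in Jarid2 KO. Its Ezh2 KO mean of 42.9 ± 8.64 CPM was 1.67 times the Control mean of 25.8 ± 4.81 (SD, n = 2 each), the smallest ratio of the 7. Mab21l2 was near the detection floor in untransplanted mice, at 0.265 and 0.0834 CPM in Control (26 and 7 UMIs), 0.911 and 0.893 in Ezh2 KO (104 and 113 UMIs), and 0.259 and 0.0992 in Jarid2 KO. All 7 genes were therefore above every other baseline library in both Ezh2 KO libraries, which is what they were chosen for. Across all 18177 genes tested in that contrast 3.47% were called at an adjusted p below 0.05, 2.81% of the genes tested being higher in Ezh2 KO and 0.655% lower.

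**Figure D1:**
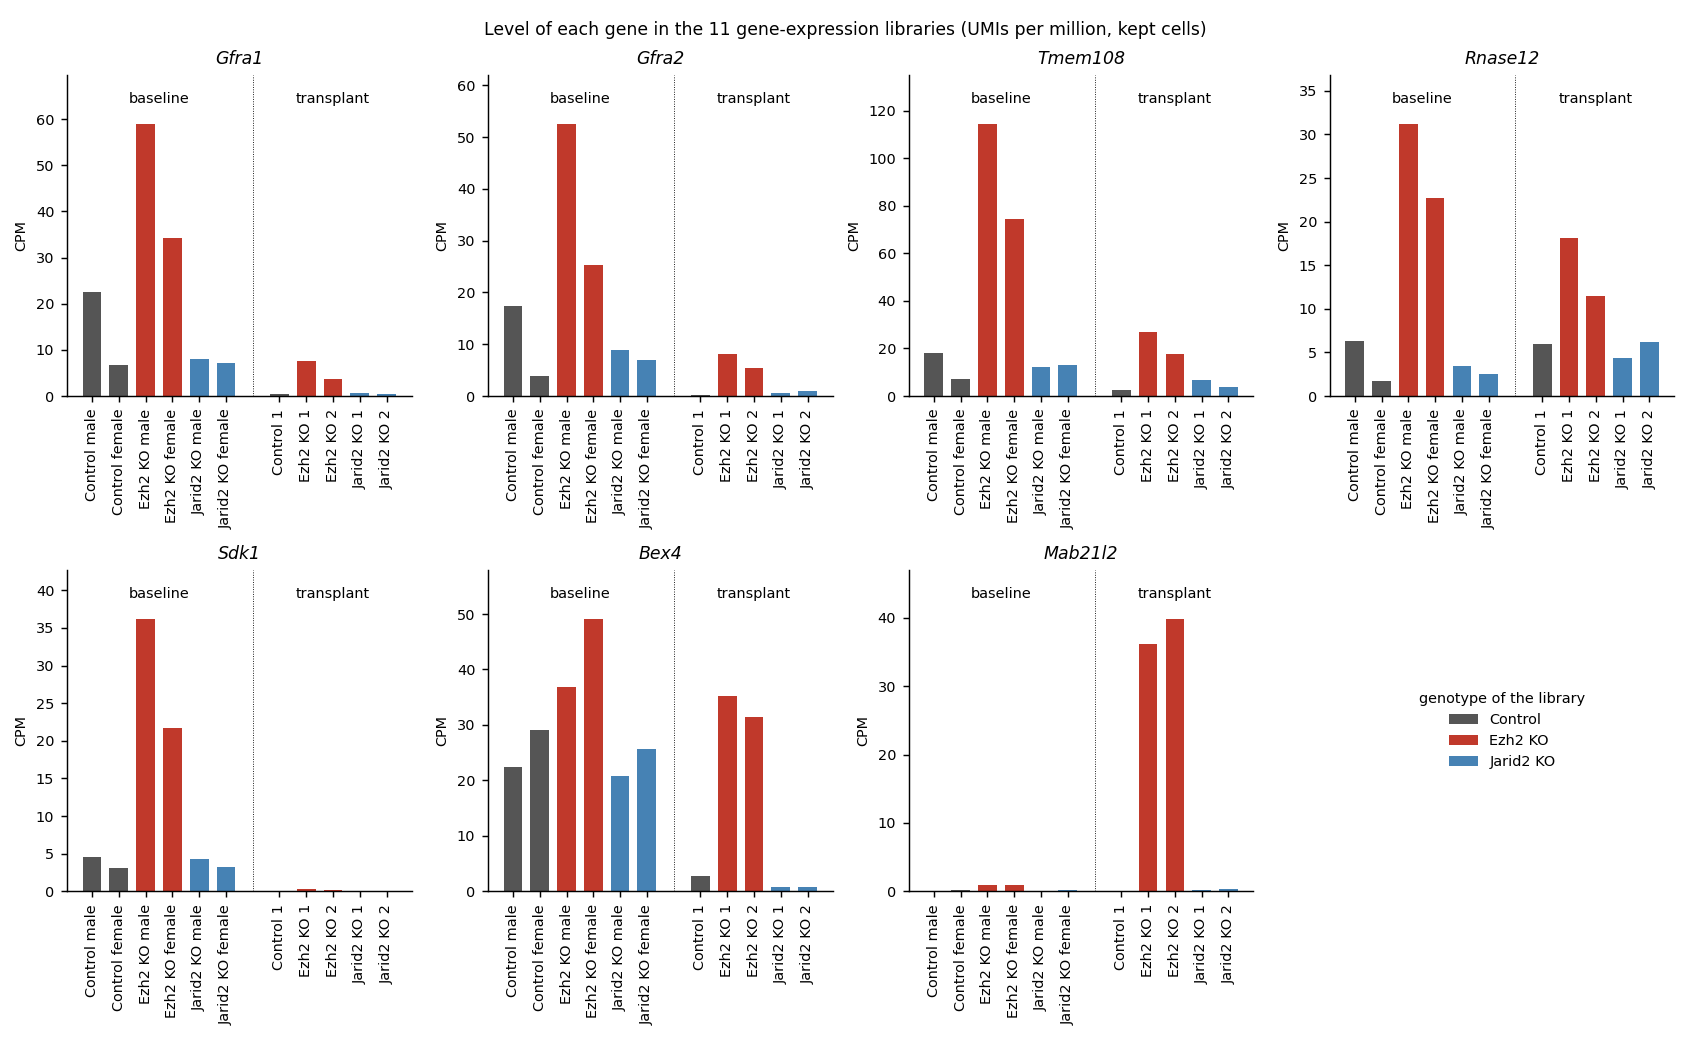
Level of each of the 7 genes in each of the 11 libraries, in CPM, with 1 bar per library, bars starting at 0, and colour giving genotype. Mab21l2 in Ezh2 KO stands at 0.911 and 0.893 CPM at baseline and 36.3 and 39.8 CPM after transplant, while Sdk1 goes the other way. The baseline and transplant libraries were counted with different Cell Ranger versions.

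After transplant the order of the genes was different, in counts made with another Cell Ranger version (6.1.2, against 7.2.0 at baseline). Intron handling is not given, and Sdk1 spans 974090 bases but Mab21l2 only 2234. The part of counting in differences between the experiments was not tested. Mab21l2, the scarcest at baseline, was the most abundant, at 36.3 and 39.8 CPM in the 2 Ezh2 KO libraries, against 0.0591 CPM (4 UMIs) in Control and 0.141 and 0.304 in Jarid2 KO. The ratio to the Control library was 613 (95% counting interval 239 to 2251) and 673 (263 to 2471). The intervals rest on the 4 Control UMIs and cover counting error only.

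Bex4 was at 35.2 and 31.3 CPM in Ezh2 KO, 2.78 in Control and 0.714 and 0.852 in Jarid2 KO, a ratio to Control of 12.7 (10.9 to 14.7) and 11.3 (9.72 to 13.1). Tmem108 was at 27.01 and 17.8 CPM in Ezh2 KO, 2.35 in Control, and 6.57 and 3.77 in Jarid2 KO. Rnase12 was at 18.1 and 11.4 CPM in Ezh2 KO, 5.97 in Control, and 4.35 and 6.20 in Jarid2 KO, so the lowest Ezh2 KO library was 1.85-fold above the highest of the others. This was the smallest margin after transplant.

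Gfra1 was at 7.54 and 3.76 CPM in Ezh2 KO, 0.429 in Control, and 0.585 and 0.455 in Jarid2 KO. Gfra2 was at 8.12 and 5.37 CPM in Ezh2 KO, 0.251 in Control, and 0.530 and 0.911 in Jarid2 KO. Sdk1 had few counted UMIs in the transplanted cells, at 0.251 and 0.223 CPM in Ezh2 KO (28 and 18 UMIs). It was at 0.0148 CPM (1 UMI) in Control, with 0.0433 and 0.0584 in Jarid2 KO. Its ratios of 17.0 (2.81 to 694) and 15.1 (2.38 to 629) rest on that single UMI. In this contrast 4.84% of 15758 genes were called, 3.40% higher in Ezh2 KO and 1.44% lower.

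Because the sexes were mixed in Control and Jarid2 KO, the transplant levels were also taken over male cells alone, an alternative chosen after seeing the data. Mab21l2 was then at 37.9 and 40.1 CPM in Ezh2 KO and 0.07 in Control. Bex4, which is X-linked, was at 34.2 and 30.7 CPM in Ezh2 KO, 4.70 in Control, and 0.82 and 0.95 in Jarid2 KO. The differences of both genes were thus present within male cells.

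Because libraries differ in depth, the share of cells with at least 1 UMI was compared after thinning every cell to 5000 UMIs and leaving out shallower cells. Tmem108 was then detected in 11.6% and 20.5% of female and male Ezh2 KO cells at baseline, 2.64% and 5.82% of Control cells, and 3.64% and 3.82% of Jarid2 KO cells (17.9% and 30.4%, 4.50% and 9.94%, and 6.88% and 7.35% unthinned). Mab21l2 after transplant was detected in 17.5% (95% exact binomial interval 16.6% to 18.5%) and 19.1% (18.1% to 20.2%) of thinned Ezh2 KO cells, and in 0.0803% (0.0166% to 0.235%) of Control cells. Without thinning these shares were 35.1%, 30.6% and 0.0689%. For all 7 genes in both experiments the thinned share of each Ezh2 KO library exceeded that of every other library, which restates what they were chosen for (4.84% of all genes were called in the transplant contrast and 3.47% at baseline). Unthinned, Rnase12 after transplant was the exception, at 5.59% in the second Ezh2 KO library and 5.86% in the second Jarid2 KO library.

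At least 1 of the 7 genes was detected in 30.1% and 35.7% of thinned baseline Ezh2 KO cells, against 14.6% to 20.3% in the other baseline libraries. After transplant the shares were 41.4% and 37.9%, against 5.09% to 5.14%. At least 2 of the 7 were detected in 10.0% and 18.0% of baseline Ezh2 KO cells, and in 1.64% to 4.94% of the others. Single cells could hold many copies: the highest count in a baseline Ezh2 KO cell was 65 UMIs for Tmem108, 50 for Sdk1, 44 for Bex4 and 38 for Gfra2.

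The cells that carried these RNAs were not the same for all 7 genes, and for 5 of them the highest baseline levels were in cells with B-lineage RNA. Cells were split by how many of 8 early B-lineage genes (among them Cd79a, Cd79b, Ebf1, Vpreb1, Vpreb3, Igll1 and Pax5) had a UMI. Those with 3 or more, a definition chosen after seeing the data, are called B-marker cells here. Their median depth, 8859 to 14289 UMIs per baseline library, overlapped that of cells with none of the markers, 10395 to 11981. B-marker cells were themselves more frequent in Ezh2 KO, at 13.2% of the female and 24.2% of the male library, against 2.84% and 7.81% in Control and 4.40% and 3.64% in Jarid2 KO. After transplant they were 9.01% and 6.77% of Ezh2 KO, 0.322% (14 cells) of Control, and 1.09% and 1.37% of Jarid2 KO cells. In sums over a whole library, more cells of a type and more RNA per cell cannot be told apart, which is why the levels are given next within B-marker cells.

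Within B-marker cells the 2 co-receptor genes were already high in Control. Gfra1 was at 268 and 221 CPM there in the female and male Control libraries, 261 and 238 in Ezh2 KO, with 161 and 150 in Jarid2 KO. Gfra2 was at 163 and 200.2 CPM in Control, 205 and 227 in Ezh2 KO, with 174 and 195 in Jarid2 KO. For Gfra1 the Control and Ezh2 KO libraries overlapped, and for Gfra2 the 2 Ezh2 KO libraries lay just above.

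A UMI of Gfra1 was present in 61.4% and 74.7% of Control B-marker cells and in 75.8% and 79.2% of those of Ezh2 KO. In cells with none of the B markers Gfra1 was at 0.416 and 1.74 CPM in Control and 1.34 and 3.77 in Ezh2 KO, and Gfra2 at 0.238 and 0.322, and 0.396 and 1.10. B-marker cells held 94.8% and 98.0% of all Gfra2 UMIs of the Control libraries and 98.1% and 98.2% of those of Ezh2 KO. The genes had been grouped as non-blood genes, and the 2 co-receptor genes went against that name. Among the sorted KSL cells of baseline Control nearly all of the Gfra2 RNA was in blood progenitors with B-lineage RNA. The 2 were not the only ones: Bex4 had a UMI in 48.0% and 47.6% of Control cells gated as stem cells by surface antibodies. Tmem108, Rnase12 and Sdk1 also had RNA in Control B-marker cells, as given next.

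Tmem108, Rnase12 and Sdk1 were carried by B-marker cells too, but at a higher level there in Ezh2 KO. Tmem108 was at 164 and 122 CPM in Control B-marker cells, 530.2 and 442 in Ezh2 KO, with 211 and 133 in Jarid2 KO. Rnase12 was at 41.1 and 62.4, 181 and 133, and 52.6 and 64.9 CPM in the same libraries. Sdk1 was at 38.0 and 30.2, 157 and 147, and 19.5 and 26.8 CPM. For each of these 3 genes both Ezh2 KO libraries lay above all 4 others.

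In cells with none of the markers Sdk1 was at 2.11 and 2.30 CPM in Control and 2.92 and 3.34 in Ezh2 KO, and Rnase12 at 0.817 and 0.989, and 0.957 and 1.27. Tmem108 stood there at 3.25 and 5.50 CPM in Control and 8.70 and 13.8 in Ezh2 KO. In erythroid-like cells, given as a measure of free RNA, the Ezh2 KO libraries had 1.05 and 0.407 CPM of Tmem108 (2 UMIs and 1 UMI). The part of free RNA in the level outside B-marker cells was not tested further. The share of Sdk1 UMIs that lay in B-marker cells was 28.5% and 56.0% in Control and 87.3% and 92.6% in Ezh2 KO, and that of Rnase12 was 54.4% and 84.3%, and 95.8% and 96.8%.

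Bex4 followed a different pattern. In Control it was low in B-marker cells, at 3.1 and 1.96 CPM, and higher in cells with none of the markers, at 33.1 and 24.2. In Ezh2 KO it was at 59.9 and 45.5 CPM in B-marker cells, where 35.6% and 34.4% of cells had a UMI, against 2.24% and 1.90% in Control. In Jarid2 KO B-marker cells it was at 1.60 and 3.76 CPM. The level in cells with none of the markers was 49.6 and 35.3 CPM in Ezh2 KO. Mab21l2 was near 0 in B-marker cells at baseline, at 0.218 and 0.278 CPM in Ezh2 KO and 0 and 0.140 in Control.

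**Figure D2:**
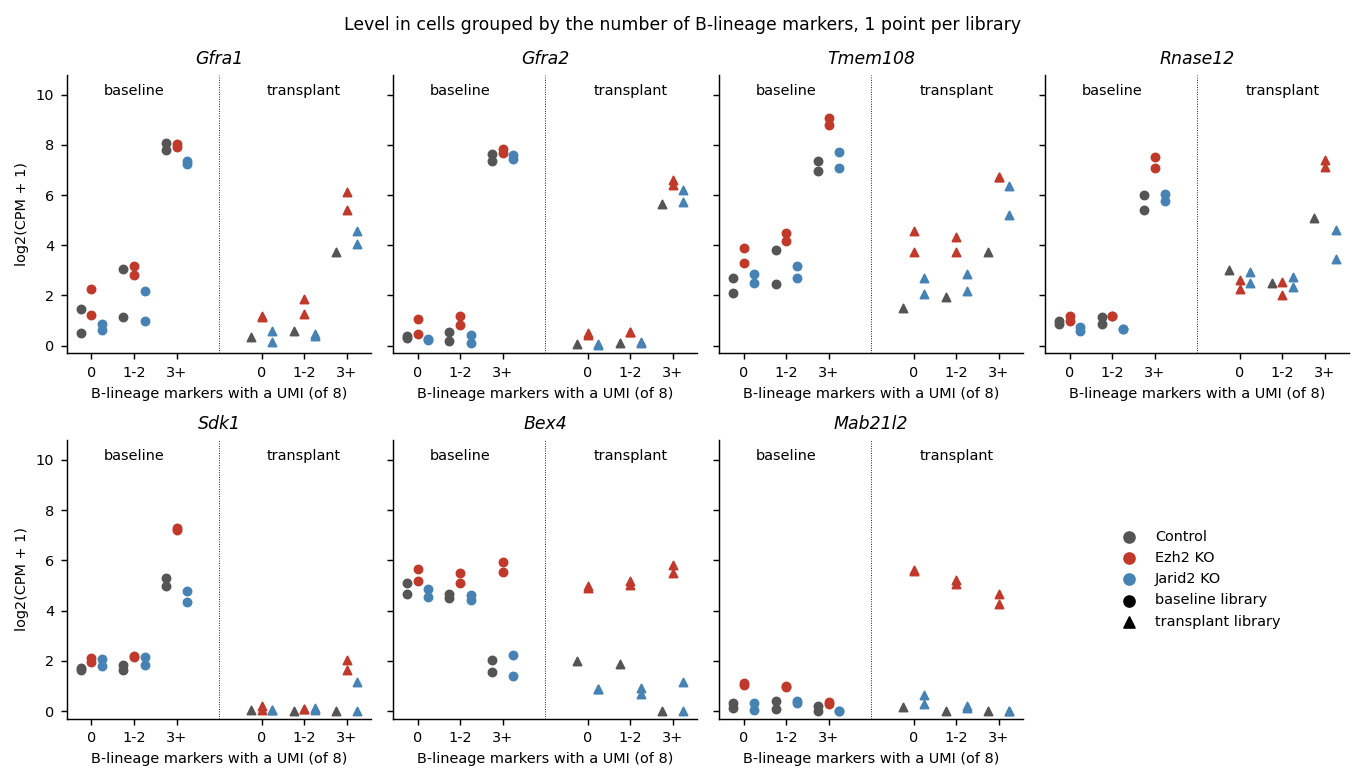
Level of each gene, as log2(CPM + 1), in cells with 0, 1 to 2, or 3 or more of 8 B-lineage markers detected, with 1 point per library. Gfra1 and Gfra2 are highest at 3 or more markers in Control as in Ezh2 KO, whereas Bex4 in cells with 3 or more markers was at 3.1 and 1.96 CPM in baseline Control and 59.9 and 45.5 CPM in Ezh2 KO.

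After transplant the B-marker cells of Ezh2 KO held Rnase12 at 167 and 138 CPM, Tmem108 at 103 and 103, Gfra2 at 95.1 and 82.7, Gfra1 at 68.5 and 41.5, and Bex4 at 54.6 and 44.6. The Control library had only 14 such cells, in which Gfra2 was at 49.2 CPM and Rnase12 at 32.8. In Jarid2 KO Gfra2 was at 52.4 and 72.0 CPM and Rnase12 at 9.99 and 23.7. Mab21l2 was in these cells at 18.3 and 24.2 CPM in Ezh2 KO, below the 47.8 and 46.7 CPM in cells with none of the markers. Tmem108 was spread more widely than at baseline: B-marker cells held 31.0% and 34.8% of its UMIs, and cells with none of the markers were at 23.0 and 12.4 CPM in Ezh2 KO and 1.80 in Control.

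For Rnase12 a second blood cell state mattered. Cells with 3 or more of 6 basophil and mast cell markers held it at 89.5 CPM in the transplant Control, 63.8 and 47.2 in Ezh2 KO, with 58.8 and 83.8 in Jarid2 KO. They held 67.6% of its UMIs in Control, 13.2% and 14.2% in Ezh2 KO, with 38.6% and 33.9% in Jarid2 KO. The Control Rnase12 level after transplant was thus mostly that of basophil and mast cell-like cells, and there the Ezh2 KO libraries were not higher than the Control library.

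Clusters gave the same picture with more states. Cells were grouped by clusters found in Control cells, without the 7 genes, their neighbours or their relatives, and clusters were named only from fixed marker lists. In the B-like class at baseline, Tmem108 was at 202 and 126 CPM in Control and 618 and 523 in Ezh2 KO, and Gfra1 at 338 and 242, and 306 and 281. Sdk1 was at 48.1 and 35.9 CPM in that class in Control and 183 and 178 in Ezh2 KO. The class held 2.18% and 6.37% of Control cells and 11.7% and 21.1% of Ezh2 KO cells. For 6 of the 7 genes the lower Ezh2 KO library lay above the higher Control library in it, Gfra1 being the exception. Nothing is read from this count, since the genes were chosen on the same contrast (3.47% of all genes called over whole libraries).

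The lymphoid-primed-like class held Tmem108 at 39.2 and 83.9 CPM in Control and 98.5 and 113 in Ezh2 KO. Gfra1 was there at 6.63 and 66.3 CPM in Control and 33.8 and 59.1 in Ezh2 KO, so that the male Control library was the highest. Sdk1 was also present in the cycling-like class, at 7.68 and 7.5 CPM in Control, 8.90 and 9.25 in Ezh2 KO, with 10.2 and 11.9 in Jarid2 KO. There the 3 genotypes lay close together.

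Bex4 in Ezh2 KO was highest in the erythroid-like class, at 110 and 63.0 CPM in Control, 322 and 257 in Ezh2 KO, with 86.9 and 54.5 in Jarid2 KO. In the megakaryocyte-like class it was at 79.7 and 65.4 CPM in Control and 102 and 77.9 in Ezh2 KO. In the myeloid-like class it was at 12.8 and 12.7 CPM in Control and 38.8 and 28.2 in Ezh2 KO, and in the HSC-like class (resembling blood stem cells) at 38.6 and 41.5, and 50.8 and 33.8. There the male Ezh2 KO library lay below both Control libraries.

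**Figure D3:**
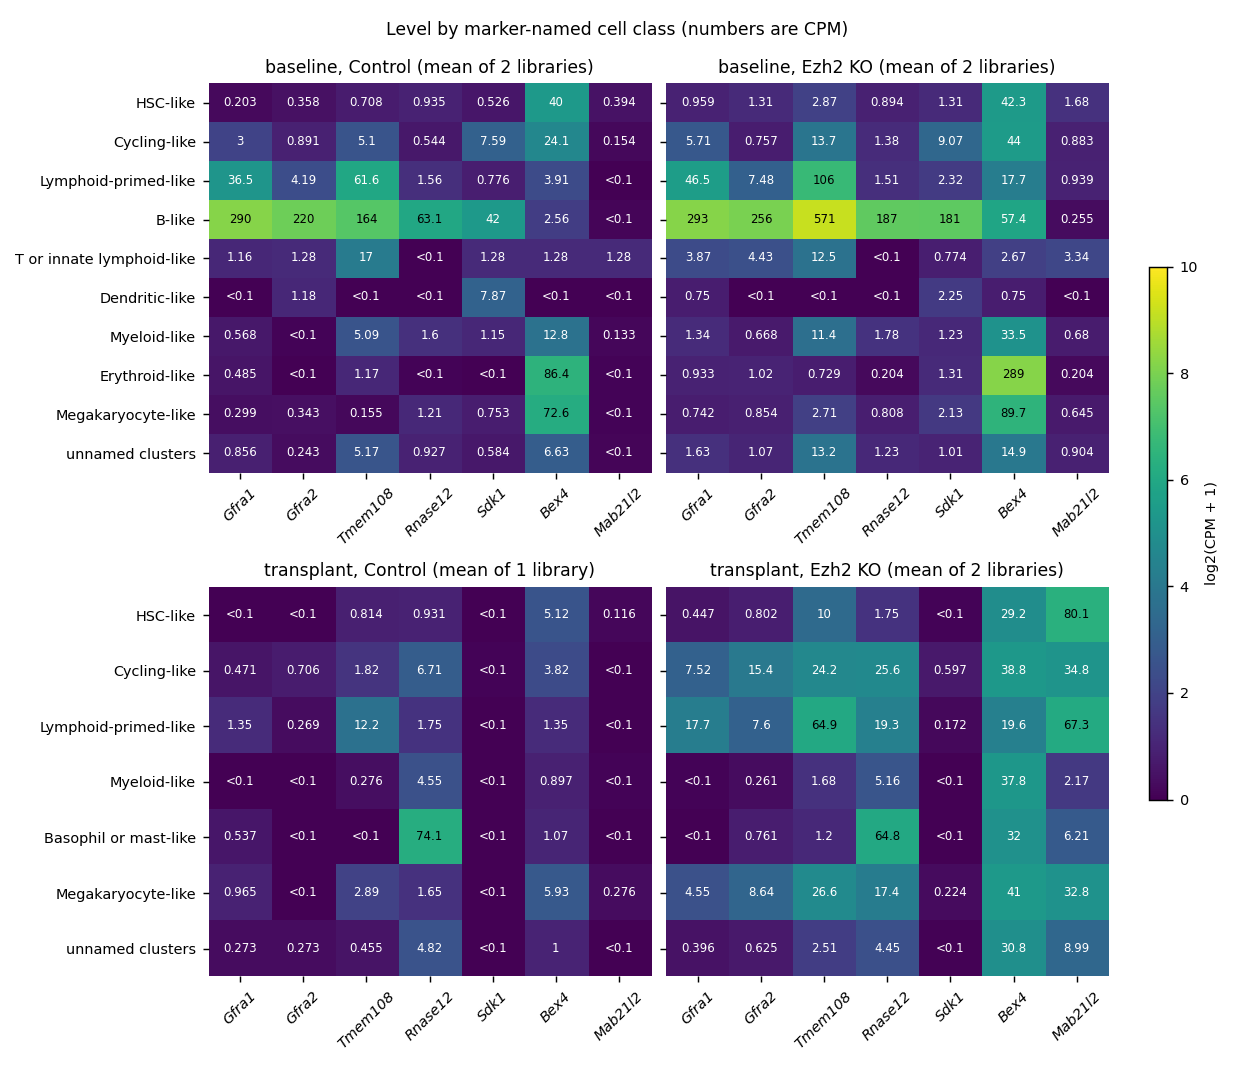
Heat map of the level of each gene in each cell class, for Control and Ezh2 KO in both experiments, with colour giving log2(CPM + 1) and printed numbers giving the mean CPM of the libraries. At baseline the B-like class is the brightest for 5 genes, and after transplant Mab21l2 is brightest in the HSC-like class, where the Ezh2 KO libraries were at 77.9 and 82.4 CPM.

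After transplant no cluster met the markers for a B-like class. Clusters were found in Control cells, of which only 0.322% were B-marker cells, so such a class could hardly form. The B-marker cells of Ezh2 KO thus lay within the other classes, and their part in the levels by class was not tested. Mab21l2 in Ezh2 KO was unevenly spread over the classes, at 77.9 and 82.4 CPM in the HSC-like class, 68.0 and 66.6 in the lymphoid-primed-like class, 32.0 and 37.5 in the cycling-like class, 31.4 and 34.2 in the megakaryocyte-like class, 7.83 and 4.60 in the basophil-like class and 2.37 and 1.96 in the myeloid-like class. Most of the lymphoid-primed-like class in Control was a cluster with 3 of 6 markers raised and none of them among its top 10 genes, so that name is weak there. The other cluster of the class had all 6 markers raised, and Mab21l2 stood in it at 71.7 and 67.8 CPM in Ezh2 KO, against 62.0 and 64.4 in the weakly named one. In Control the HSC-like level was 0.12 CPM. At baseline the HSC-like class of Ezh2 KO held Mab21l2 at 1.62 and 1.74 CPM, and that of Control at 0.69 and 0.10.

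Bex4 after transplant was broad instead, at 17.5 to 41.1 CPM over all classes of the Ezh2 KO libraries, 0.90 to 5.93 in Control and 0 to 2.19 in Jarid2 KO. In the myeloid-like class, where Mab21l2 was lowest, Bex4 was at 40.0 and 35.7 CPM in Ezh2 KO and 0.90 in Control. Tmem108 was highest in the lymphoid-primed-like class, at 77.2 and 52.5 CPM in Ezh2 KO, 12.2 in Control, and 28.5 and 16.3 in Jarid2 KO.

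To separate level from cell make-up, the classes of every library were weighted by their shares in Control. The baseline ratio of Ezh2 KO to Control then moved from 3.19 to 1.03 for Gfra1, from 3.64 to 1.20 for Gfra2, from 6.71 to 2.39 for Rnase12, from 7.42 to 2.71 for Tmem108 and from 7.53 to 2.87 for Sdk1. For Bex4 it moved from 1.67 to 1.89, and for Mab21l2 from 5.18 to 6.1. At Control make-up, both Ezh2 KO libraries were above both Control libraries for Tmem108, Sdk1, Mab21l2, Bex4 and Rnase12, and not for the 2 co-receptor genes. With doublets kept the co-receptor genes were above as well, at 1.15 for Gfra1 and 1.27 for Gfra2. With weights taken from the B-marker states, chosen after seeing the data, every gene was above, with Gfra1 at 1.14 and Gfra2 at 1.24. These comparisons rest on the same contrast as the choice. The share of all genes above in this way was not computed, so nothing is read from the number of genes.

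After transplant the weighted ratios were 534 for Mab21l2 (643 as the cells fell), 12.1 for Bex4 (12.0), 6.73 for Tmem108 (9.52), 7.79 for Gfra1 (13.2), 21.5 for Gfra2 (26.8), 13.5 for Sdk1 (16.0) and 2.19 for Rnase12 (2.47). With B-marker states as weights the last 4 moved further, to 4.27 for Gfra1, 2.93 for Gfra2, 5.33 for Sdk1 and 0.793 for Rnase12, while Bex4 stayed at 11.4. These weights rest on the 14 B-marker cells of the single Control library. The classes did not hold B-marker cells apart after transplant, so the ratios weighted by class still contain the share of B-marker cells.

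Markers of cells outside blood were scarce. The summed level of 6 neural and Schwann cell markers, with 0 to 3 of the 6 at 0 in a library, was 3.94 to 4.55 CPM at baseline, and after transplant 3.40 and 3.56 in Ezh2 KO, 2.77 in Control and 2.14 and 2.20 in Jarid2 KO. That of 5 endothelial markers was 1.76 to 3.35 over the 11 libraries. The 6 stromal markers summed to 1.28 to 8.94 CPM at baseline, and after transplant to 1.09 and 1.39 in Ezh2 KO and 0.0817 to 0.207 in the others. The 8 B-lineage markers were higher in Ezh2 KO together with the 7 genes, at 309 and 1032 CPM in baseline Control, 1580 and 2940 in Ezh2 KO, with 436 and 446 in Jarid2 KO. After transplant they summed to 46.0, 545 and 420, and 78.6 and 97.0 CPM. Other lists also separated the Ezh2 KO libraries: 6 cycling markers at baseline (1020 and 1230 CPM, against 758 to 856), and after transplant 6 lymphoid-primed markers (963 and 965, against 434 to 584), 6 erythroid markers (322 and 325, against 175 to 206) and the myeloid markers, which were lower (8140 and 8500, against 10600 to 16900). Stem cell markers were lower at baseline (1120 to 1280 CPM, against 1370 to 1630). So were megakaryocyte (87.5 to 102, against 106 to 225) and erythroid markers (597 to 638, against 644 to 1040). After transplant basophil or mast markers were higher (240 to 252, against 180 to 227). T or innate lymphoid (307 to 345, against 426 to 514) and dendritic markers (303 to 342, against 380 to 599) were lower. So were macrophage (12.4 to 13.1, against 18.6 to 24.9) and endothelial markers (2.01 to 2.22, against 2.27 to 2.87). The part of these lists and of the neural and stromal markers in the results was not tested. For the B-lineage markers the levels within B-marker cells are given above. Whether the mix of states within B-marker cells differed between genotypes was not tested.

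The genes were also compared cell by cell for joint detection in the Ezh2 KO libraries, after thinning, as the number of cells with UMIs of both genes over the number expected if the 2 were independent. Gfra1 and Gfra2 were seen together in 355 cells against 37.89 expected in the female baseline library and in 706 against 145.55 in the male one. Among Gfra1, Gfra2, Tmem108, Rnase12 and Sdk1 this ratio was 3.65 to 9.39 at baseline, and 2.75 to 11.27 after transplant for the pairs expected in at least 5 cells, which left out every pair with Sdk1. Bex4 with the others, again for pairs expected in at least 5 cells, gave 0.83 to 1.74. In baseline Control, Gfra1 with Gfra2 gave 41.51 in the female library (only 1.32 cells expected) and 11.45 in the male one. Bex4 with Gfra1 gave 0.27 and 0.21 there. The joint detection of Gfra1 and Gfra2 was thus not particular to Ezh2 KO. The ratio is limited by how common the genes are, so its size is not compared between genotypes.

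Mab21l2 after transplant was seen with Gfra2 in 0.24 and 0.33 of the expected number of cells and with Rnase12 in 0.28 and 0.29. With Bex4 the ratio was 0.83 and 0.84, and with Tmem108 1.38 and 1.22. With Gfra1 it was 0.88 and 0.60. Mab21l2 thus shared fewer cells than expected with Gfra2 and Rnase12, and more than expected with Tmem108.

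**Figure D4:**
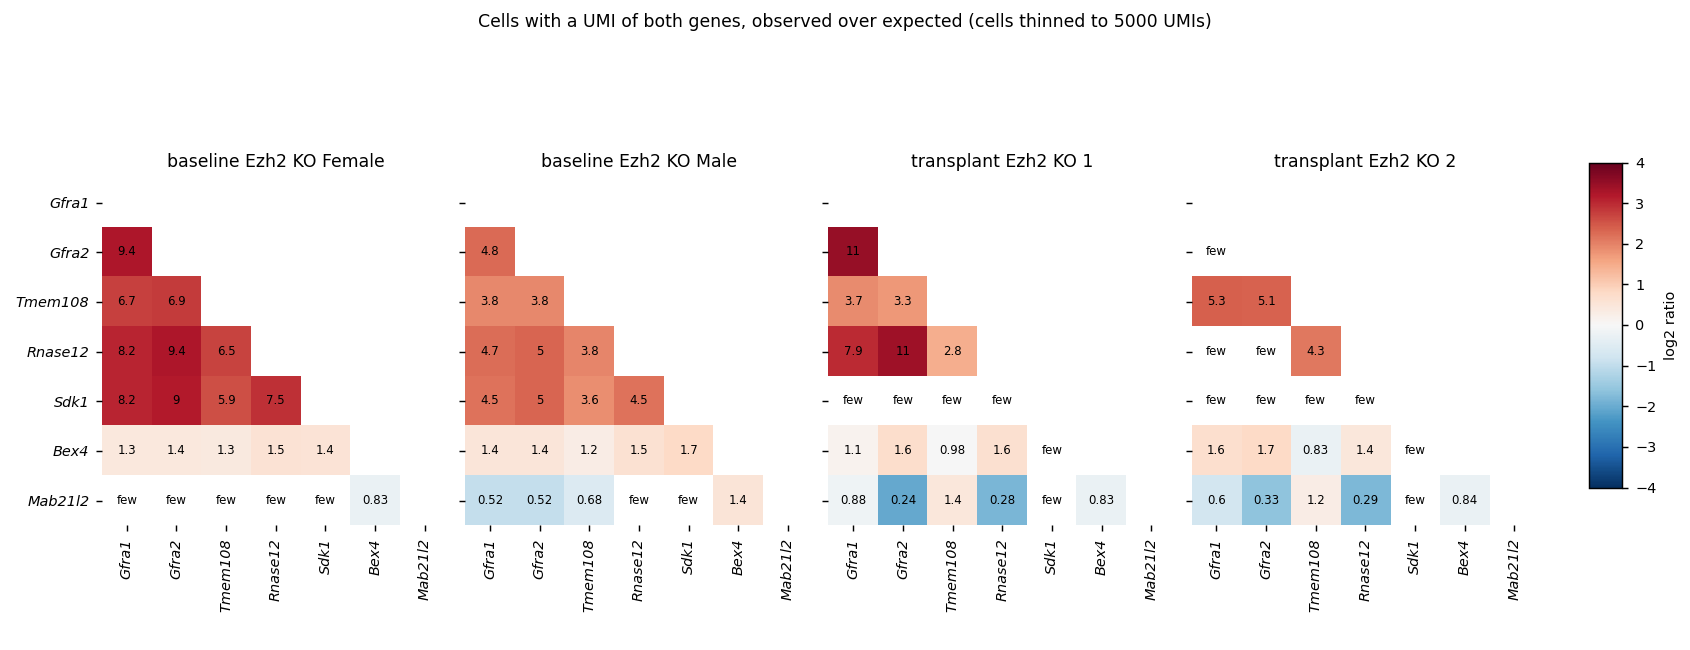
Observed over expected number of cells with UMIs of both genes of a pair in the 4 Ezh2 KO libraries, after thinning cells to 5000 UMIs, with pairs expected in fewer than 5 cells marked few. Gfra1, Gfra2, Tmem108, Rnase12 and, at baseline, Sdk1 form a block with ratios of 2.75 to 11.27. Bex4 with the others is at 0.83 to 1.74, and Mab21l2 with Gfra2 after transplant is at 0.24 and 0.33.

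Ezh2 RNA was not gone from the cells that carried the 5 genes. In baseline B-marker cells Ezh2 was at 516 and 535 CPM in Control and 243 and 262 in Ezh2 KO, and in cells with none of the markers at 181 and 171, and 130 and 128. Among thinned male Ezh2 KO cells Tmem108 was detected in 27.2% of those with an Ezh2 UMI and 15.6% of those without, and Gfra2 in 21.5% and 7.46%. In male Control cells the same 2 shares were 7.78% and 4.10% for Tmem108 and 7.41% and 0.82% for Gfra2. Mab21l2 after transplant was detected in 16.9% of cells with and 17.7% of cells without an Ezh2 UMI in the first Ezh2 KO library, and in 18.9% and 19.2% in the second. An Ezh2 UMI does not tell whether the allele was deleted.

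Surface antibody tags gave a separation that the choice of genes had not used. Baseline cells were gated as stem cells (CD150 high, CD48 low), MPP2 (CD150 high, CD48 high), MPP3 (CD150 low, CD135 low) and MPP4 (CD150 low, CD135 high), MPP standing for multipotent progenitor. The stem cell gate held 10.4% to 16.5% of a library. In Ezh2 KO, Gfra1 was at 0.40 and 1.46 CPM in the stem cell gate of the female and male library, 31.2 and 96.3 in MPP2, 87.1 and 137 in MPP3, and 6.96 and 18.0 in MPP4. Tmem108 was at 1.82 and 1.55, 56.0 and 170, 178 and 254, and 25.7 and 46.1 CPM in the same order. Both genes were lowest in the stem cell gate and highest in MPP3, and the same order held for Gfra2, Rnase12 and Sdk1. The gates did not leave out B-marker cells, which held nearly all Gfra2 UMIs, and MPP3 was set without CD48. How many B-marker cells fell in each gate was not counted. The gate levels and the tests below are thus not independent of the B-lineage pattern.

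Bex4 ran the other way, at 96.0 and 78.6 CPM in the Ezh2 KO stem cell gate, 93.3 and 64.5 in MPP2, 43.0 and 41.9 in MPP3, and 29.9 and 18.7 in MPP4. In Control it was at 84.8 and 80.8, 44.5 and 35.4, 24.9 and 14.2, and 9.83 and 7.80 CPM. In the stem cell gate the Control and Ezh2 KO libraries overlapped, and in the 3 progenitor gates both Ezh2 KO libraries were higher. Mab21l2 was at 1.74 and 1.38 CPM in the stem cell gate and 0.45 to 1.08 in the others.

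**Figure D5:**
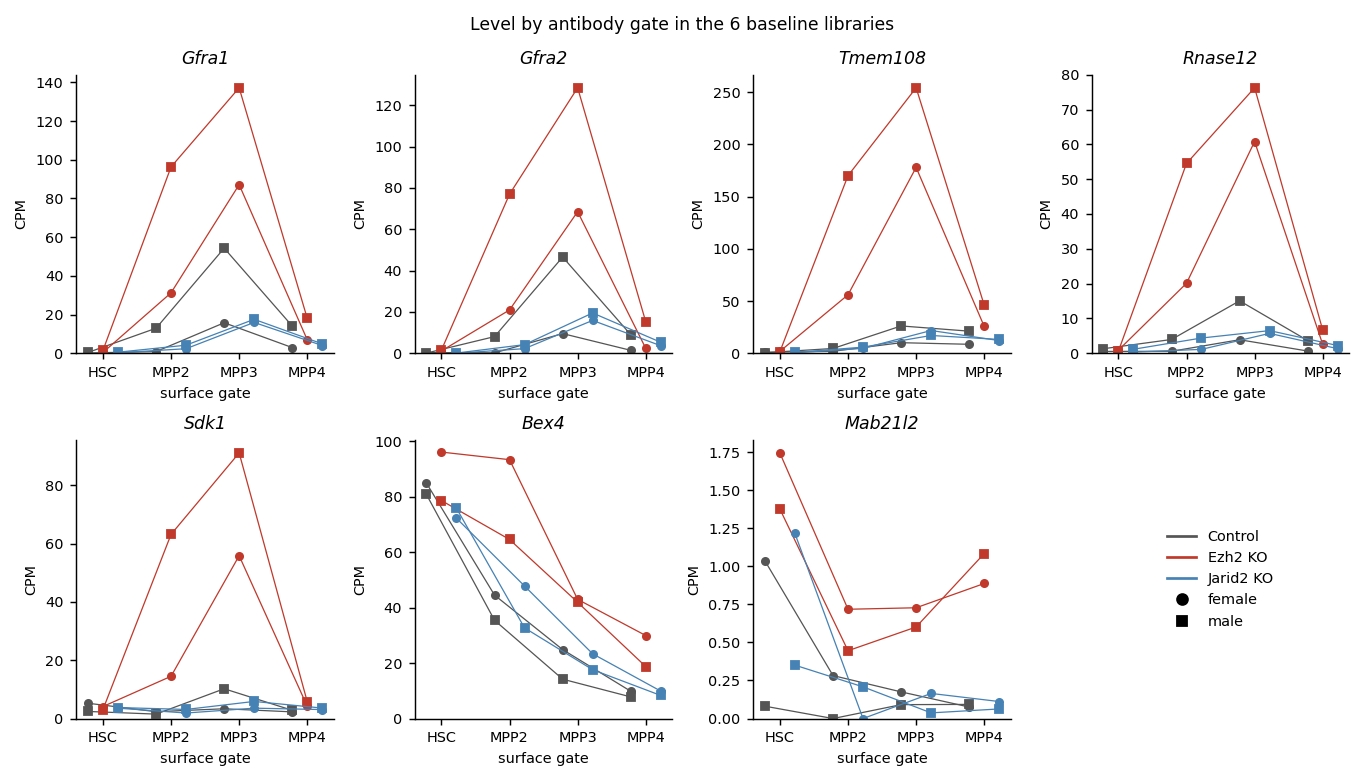
Level of each gene in CPM in the 4 surface gates of the 6 baseline libraries, with 1 line per library and colour giving genotype. Gfra1, Gfra2, Tmem108, Rnase12 and Sdk1 peak in MPP3 in Ezh2 KO, with Tmem108 at 178 and 254 CPM, and Bex4 falls from the stem cell gate to MPP4. B-marker cells were not left out of the gates.

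Within Ezh2 KO the stem cell gate was tested against the mean of the other 3 gates with edgeR's quasi-likelihood test in a fit over the 4 gates of all 6 baseline libraries. Here 49.4% of 16471 genes were called, 24.9% higher and 24.4% lower in the stem cell gate, and 63.4% differed among the 4 gates in any way, so a call says little by itself and the size of the difference is the more telling value. All 7 genes were called. Tmem108 was lower by a log2 difference of -5.86 (SE 0.32, adjusted p 3.56e-09), Gfra1 by -5.67 (SE 0.35), Rnase12 by -4.98 (SE 0.41), Gfra2 by -4.75 (SE 0.47) and Sdk1 by -2.75 (SE 0.47, adjusted p 0.000173). Bex4 was higher by 0.95 (SE 0.13, adjusted p 2.31e-05). Leaving out 1 library, the sizes ran from -6.41 to -5.16 for Tmem108, -6.10 to -5.47 for Gfra1 and -5.71 to -4.10 for Rnase12. They ran from -5.17 to -3.80 for Gfra2, -3.45 to -1.92 for Sdk1 and 0.92 to 1.02 for Bex4. The Mab21l2 call (1.04, SE 0.41, adjusted p 0.0451) was lost without either Ezh2 KO library (adjusted p 0.184 and 0.269), with DESeq2 (0.163) and with median gate thresholds (0.086).

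The same contrast within Control, where 43.4% of genes were called (22.0% higher and 21.4% lower), gave -3.76 for Tmem108, -5.49 for Gfra1, -5.35 for Gfra2, -1.97 for Rnase12, 2.09 for Bex4 and 2.06 for Mab21l2, all called. The Mab21l2 call rests on the female Control library, with 14 UMIs in the stem cell gate, since the male one had 1. Gfra1 had only 2 and 5 UMIs in that gate of the female and male Control library, and Gfra2 4 and 1. The sizes of these differences thus rest on few molecules. Sdk1 was not called (0.25, adjusted p 0.760). Within Jarid2 KO (44.1% called) the 6 calls were in the same directions and Sdk1 was again not called (0.09, adjusted p 0.932). Whether the gate difference of Sdk1 differs between genotypes was not tested.

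Jarid2 KO against Control was tested next. At baseline, with sex in the edgeR model, 0 of the 7 genes were called, beside 0.0330% of all genes tested, and 1 of the 7 had an unadjusted p below 0.05. The log2 differences were -0.73 for Gfra1, -0.24 for Rnase12, -0.14 for Gfra2, -0.12 for Bex4 (SE 0.05, adjusted p 0.420), -0.01 for Sdk1, 0.06 for Mab21l2 and 0.14 for Tmem108. Their median was -0.12, against 0.001 over all genes. The share of all genes with an unadjusted p below 0.05 was not taken. After transplant, with a single Control assumed to vary like the KO libraries, 0.336% of genes were called and 1 of the 7. This was Bex4, which was lower in Jarid2 KO by a log2 difference of -1.88 (SE 0.17, adjusted p 0.0156), in both libraries. The spread of Control could not be measured, so this adjusted p rests on that assumption. The others were at 1.81 for Mab21l2 (adjusted p 0.452), 1.63 for Sdk1, 1.45 for Gfra2, 1.10 for Tmem108 (0.604), 0.23 for Gfra1 and -0.24 for Rnase12. Here 3 of the 7 had an unadjusted p below 0.05, and the median was 1.105, against 0.011 over all genes. These 2 values support nothing, since genes chosen for a low level in a single Control library have a raised difference from it in advance.

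Sex was a contrast that the choice did not use. Over the 6 baseline libraries, female against male with genotype in the model, 0.600% of genes were called (0.264% higher and 0.336% lower in females) and 1 of the 7, while 6 of the 7 had an unadjusted p below 0.05. The share of all genes below that unadjusted p was not taken, so nothing is read from that count. The median of the 7 was -0.61, against 0.003 over all genes. Bex4 was higher in females by a log2 difference of 0.37 (SE 0.04, adjusted p 0.0340), in all 3 genotypes, and it lost the call without any 1 of the libraries (adjusted p 0.0501 to 0.0919). Gfra2 (-1.17, adjusted p 0.142), Gfra1 (-0.90, 0.171), Rnase12 (-0.86, 0.183), Tmem108 (-0.61, 0.239) and Sdk1 (-0.59, 0.0619) had lower fitted levels in females without a call, and Mab21l2 was at 0.73 (0.351). Gfra1, Gfra2, Tmem108, Rnase12 and Sdk1 were all carried by B-marker cells, so their sex differences are not separate observations. The share of B-marker cells was lower in the female than in the male library of Control and of Ezh2 KO, and its part in these differences was not tested. Within a genotype, sex cannot be told apart from the animal.

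Genes beside the 7 on the chromosome were looked at next, from a list of 42 neighbours, the 3 nearest on each side of each gene. At baseline 27 were tested in Ezh2 KO against Control, of which 6 were called higher and 0 lower (22.2%, beside 3.47% of all genes), and 14 had an unadjusted p below 0.05. No share of all genes was taken at that unadjusted p, so nothing is read from the 14. The median log2 difference of the 27 was 0.095, against -0.004 over all genes. Only 2 were called without the male Ezh2 KO library, 2 without the female Ezh2 KO library, 3 without the female Control library and 1 with no sex term, and of the 6 only Bex2 kept its call in each of these fits. Of the 6, 4 lie at Tmem108. Bfsp2, a lens filament gene 2.5 kb away, rose by 2.03 (SE 0.34, adjusted p 0.0482), from 14.1 and 57.2 CPM in Control to 78.5 and 176 in Ezh2 KO. The long non-coding genes Gm16252 (1.87, adjusted p 0.0404), Gm32743 (4.53, 0.0397) and 4932413F04Rik (3.77, 0.0384) overlap Tmem108. Strand handling is not given in the sources used here, so their reads may be those of Tmem108 and they are no separate evidence. Gm32743 and 4932413F04Rik had means of 0.046 and 0.037 CPM in Control, against 1.03 and 0.537 in Ezh2 KO. They may thus have passed the low-count filter through Ezh2 KO alone. The 22.2% counts all of these overlapping genes, so nothing is read from it beside the 3.47%.

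The other neighbours called at baseline were Kirrel, 530.3 kb from Mab21l2, which rose by 2.02 from 0.297 to 1.17 CPM (adjusted p 0.0251), and Bex2, 70.8 kb from Bex4. Bex2 rose by 2.02 (SE 0.09, adjusted p 0.00547), from 3.36 and 3.73 CPM to 14.2 and 13.7. Bfsp2 resembled the co-receptor genes in where it lay: within B-marker cells it was at 378 and 568 CPM in Control and 590 and 727 in Ezh2 KO, and in cells with none of the markers at 5.10 and 8.38, and 7.10 and 13.2. Bex2 resembled Bex4, at 0.442 and 0.839 CPM in Control B-marker cells and 31.1 and 25.6 in those of Ezh2 KO.

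After transplant, against the single Control library and with the same assumption on its spread, 22 neighbours were tested, of which 5 were called higher and 2 lower (31.8%, beside 4.84% of all genes). Bfsp2 rose by 3.40 (SE 0.21, adjusted p 0.000871), from 5.96 CPM to 70.2 and 62.6. Bex2 rose by 3.57 (SE 0.16, adjusted p 0.000411), from 1.21 CPM to 14.4 and 16.1, and Bex1, 73.5 kb from Bex4, by 2.21 (SE 0.12, adjusted p 0.000699), from 7.96 CPM to 38.6 and 39.6. Dclk2, 237.9 kb from Mab21l2, rose by 1.23 (adjusted p 0.0143) and the non-coding gene 5830418P13Rik by 2.00 (0.0100).

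The 2 that fell were Ang, by 1.01 (adjusted p 0.0391), and Rnase4, by 1.70 (0.00805), both ribonuclease A genes 33.8 kb from Rnase12 that share a start, so their reads may be split between them. The Ang call was lost without either Ezh2 KO library (adjusted p 0.0921 and 0.123). Rnase12, whose direction was given by the choice, and these 2 relatives thus went in opposite directions after transplant. At baseline Ang (log2 difference 0.07) and Rnase4 (0.03) were not called. Bex1, Bex2 and Bex4 are near copies, and reads could be assigned among them with error. The non-coding gene 5830418P13Rik overlaps Bfsp2, so its reads may be those of Bfsp2. The share of neighbours called after transplant counts these genes separately, so nothing is read from it beside the share over all genes. No tested neighbour of Sdk1, Gfra1 or Gfra2 was called in either experiment. Most neighbours of Gfra1 and several of Gfra2 had too few counts to be tested, so little is read from this.

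Relatives in family or pathway were taken from a second list of 43 genes, 9 of them also neighbours. At baseline 22 were tested and 2 were called, both higher (9.09%, beside 3.47% of all genes), namely Bex2 and Ncam1. Ncam1, the alternative signalling partner of the co-receptors, rose by 1.85, from a mean of 3.01 to 10.6 CPM (adjusted p 0.0171). With no sex term it was not called. In B-marker cells it was at 0.442 and 0.699 CPM in Control and 25.9 and 13.2 in Ezh2 KO. Ret, the usual partner, was at 0.139 CPM in Control and 0.134 in Ezh2 KO (log2 difference -0.01). The ligand gene Nrtn was not called (0.75, adjusted p 0.0885, at baseline and 0.53, 0.304, after transplant).

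After transplant, again against 1 Control library, 19 relatives were tested, with 5 called higher and 2 lower (36.8%, beside 4.84% of all genes). Ncam1 rose by 2.28, from 4.61 to 23.6 CPM (adjusted p 0.000781). Mab21l1, the closest relative of Mab21l2, rose by 3.67, from 0.0887 to 1.20 CPM (0.0341), and the adhesion gene Dscam by 1.76 (0.0256). Without the first Ezh2 KO library 4 relatives were called, and Mab21l1 (0.0595) and Dscam (0.0647) were not. In male cells alone neither was called (0.162 and 0.212). The remaining calls were Bex1, Bex2, Ang and Rnase4, described above. Reads may be shared between Bex1 and Bex2, and between Ang and Rnase4, so nothing is read from the share of relatives called after transplant. The median log2 difference of the tested relatives was 0.11 at baseline and 0.341 after transplant, against -0.004 and 0.007 over all genes.

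Over the 11 libraries, with levels as log2(CPM + 1) centred within each experiment, the genes whose profile was among the most like the mean profile of the 7 included Hes1 (Pearson r 0.989), Ifi214 (0.988), Rras2 (0.987), Pde3b (0.986), Bcat1 (0.986), Uchl1 (0.983), Ppm1e (0.983), Tmem91 (0.982) and Sdc4 (0.982). Among the 7, Gfra1 and Gfra2 were closest to each other (0.976), and so were Mab21l2 and Bex4 (0.968), whereas Mab21l2 and Sdk1 were at 0.223. The libraries share genotype groups and depth, and these values are descriptions.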

How the data were processed

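The authors deposited, for 11 gene-expression libraries, UMI counts per gene and cell as Cell Ranger matrices. Cell Ranger 7.2.0 (baseline) and 6.1.2 (transplant) stand in the file headers, whereas the submitters' processing notes name Cell Ranger 3.1.0, Seurat 3.0, Partek and mm10. The sources used here do not say how strand and introns were handled. The deposited antibody-tag counts came with the baseline libraries. CUT&Tag libraries, 6 in number, are not analysed here. Columns with no sample numbered 0.

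Barcodes with at least 1000 UMIs, 500 genes and at most 10% mitochondrial UMIs were kept. Scrublet (scanpy 1.11.5) set no usable doublet threshold, so the highest scores were removed at 0.8% per 1000 barcodes. This left 73310 of 97066 barcodes. Control cells were clustered per experiment (leidenalg 0.10.2) and other cells took the class of their nearest neighbours. Surface gates used Otsu thresholds. Clusters were named only from the marker lists.

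Raw counts were summed per library (and per gate) and tested with edgeR 4.0.16 (TMM, quasi-likelihood, Benjamini-Hochberg over all genes tested, threshold 0.05). DESeq2 1.42.0 was an alternative, and the procedure was tested on simulated data. In the baseline fit sex, which is the replicate number, was a term. Same-numbered baseline libraries deviated together (correlations 0.617 to 0.802 over 9142 genes), and transplant ones did not (0.019 over 8093 genes). The smallest two-sided exact permutation p of 2 against 2 is 0.333, so no such test was used. Intervals cover counting error only.

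The 7 genes and all lists were chosen with earlier results of these data known. Genes named are the 7, Ezh2, Jarid2, neighbours and relatives that were called or account for a count of 5 or fewer, and the 10 with the highest Pearson r to the mean profile of the 7, at a mean of at least 1 CPM in each experiment, of which 1 is not reported here. Nrtn and Ret were named besides, after their values were seen, as ligand and receptor of the pathway.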

Additional observations from a re-analysis of the deposited data

How the results depend on the processing

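Of the gene-level tests under another setting, 273 kept direction and call, 17 lost the call, 3 gained it and 3 reversed; leaving out 1 library at a time kept 198, lost 27 and reversed 11. The reversed ones were small differences of Jarid2 KO against Control without a call: Mab21l2 at baseline with doublets kept (-0.03), and Gfra1 (-0.34) and Rnase12 (0.13) after transplant in male cells only, a setting chosen after seeing the data. Leaving out 1 library, the baseline differences ran from -0.75 to 0.63 for Gfra2, -0.49 to 0.87 for Mab21l2, -0.82 to 0.56 for Rnase12, -0.14 to 0.12 for Sdk1 and -0.37 to 0.66 for Tmem108, and after transplant from -0.04 to 0.47 for Gfra1. With DESeq2, the counts called were 2 of the 7 genes between the sexes, 10 neighbours and 5 relatives at baseline. With genes of at least 10 CPM, which leaves fewer genes tested, they were 2 of the 7 between the sexes, 1 neighbour and 0 relatives at baseline, and 2 neighbours and 2 relatives after transplant. With no low-count filter 2 of the 7 were called between the sexes, the added gene in each case being Sdk1 (adjusted p 0.0301 here). In male cells only 4 relatives were called after transplant. Leaving out 1 library gave 0 to 0 of the 7 between the sexes, 2 to 6 neighbours and 2 to 3 relatives at baseline, 6 to 7 neighbours and 4 to 7 relatives after transplant, and 6 to 7 of the 7 for the gates. With RLE size factors Bfsp2 lost its baseline call (0.052), and with every deposited barcode Gm16252 did (0.0527).

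The baseline fits hold the replicate block, which is sex. Without the block 1 neighbour and 1 relative were called at baseline, Bex2 in both lists, so Ncam1 lost its call. After transplant the numbers share only a number, and with the block, Control put at 1, Ang (0.12) and Mab21l1 (0.0695) lost their calls. The single transplant Control was not left out, since no contrast remains without it. Where a cause is not given by the construction, the cause was not tested. The values of Mab21l2 at baseline and of Sdk1 after transplant rest on few UMIs, which limits what is read from them.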
